A study of Mus musculus with 8 samples.

Results

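The genes described here encode the proteins that sense DNA damage, signal its presence and repair it, with the Fanconi anemia genes among them. They were taken from a named list of 38 symbols, of which 36 had a probe set of their own among the 19938 genes measured. Rbbp8 and Xrcc2 had none and were not analysed here. Hematopoietic stem cells were sorted from the bone marrow of mice as KSL SLAM cells, the fraction positive for c-Kit, Sca-1 and CD150 and negative for lineage markers, CD48 and CD41. Mice in the G-CSF group were injected under the skin 2 times a day with 125 mcg/kg of granulocyte colony-stimulating factor, which stimulates the making of neutrophils, and the control mice were given phosphate-buffered saline (PBS), with 36 h as the labelled time in both groups. RNA of 4 independent G-CSF pools and 4 independent PBS pools, each of 5 to 10 mice, was amplified and read on MoGene 1.0 ST arrays. The strain, age and sex of the mice were not stated, and the labels name no mutant allele in either group.

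A break across both DNA strands is sensed by the Mre11a, Rad50 and Nbn complex and by the Ku proteins, and it activates the kinase Atm, whereas single-stranded DNA at a stalled replication fork activates the kinase Atr. The break is then rejoined directly by end joining, or trimmed and repaired by homologous recombination from the sister chromatid, a route that needs Brca1 and Brca2 and works mainly in S and G2 phase. The Fanconi anemia proteins unhook crosslinks between the strands: a core complex attaches ubiquitin to Fancd2 and Fanci, which then recruit nucleases and recombination proteins. Loss of this pathway causes bone marrow failure in people, and in mice stem cells that leave quiescence depend on it. Many of these genes are transcribed mostly in cycling cells, under factors of the E2F family.

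Values are log2 of the deposited intensity of 1 probe set per gene, and levels are compared between arrays and not between genes. Median log2 intensities of the 8 arrays lay between 5.74 and 5.89. PBS replicate 3 stood apart, with an interquartile range of 1.68 against 2.42 to 2.80 on the other arrays, and with correlations of 0.883 to 0.903 to them, whereas the others correlated at 0.956 to 0.977 among themselves. It held the lowest value of all 8 arrays for 12 of the 36 repair genes and the highest for 5. Where leaving it out turned the sign of a fold change printed here for a gene or a list, or moved it by over 1.5 times, the value without it is given too. The dimmer probe sets of Nbn and Bard1 were fitted on all 8 arrays only. The stem cell marker Kit had log2 intensities of 10.2 to 10.5 in G-CSF arrays, against 10.4 to 10.9 in PBS arrays. Slamf1, the gene of CD150, had 6.05 to 7.16 in G-CSF arrays and 5.94 to 7.24 in PBS arrays. No detection calls were used here, so the absence of a transcript could not be tested. In such pooled RNA, fewer cells of a type and less RNA per cell cannot be told apart.

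Across the repair genes, 27 of 36 had a higher mean in G-CSF arrays and 9 a lower one, with a median log2 fold change of 0.20 and a range from -0.27 for Msh6 to 0.74 for Brca1. None passed the test: 0 of 36 had an adjusted p under 0.05 by limma, adjusted by Benjamini and Hochberg's method across the 19938 genes, and the lowest adjusted p was 0.454, for Brca1. Over all genes, 19 passed as higher, which is 0.0953% of those tested, and 0 passed as lower. At an unadjusted p under 0.05, 4 repair genes had higher means (11.1%) and 0 had lower ones, against backgrounds of 6.07% higher and 2.94% lower over all genes. The 4 were Brca1, Chek2, Chek1 and Rad54b. Without PBS replicate 3 there were 5, with Rad51c and Fancd2 among them and Rad54b not (unadjusted p = 0.0874). The median over all genes was then -0.02 in place of -0.07. In that setting, the share with higher means at that p was counted only in genes with a promoter window. It was 5.87% of the 15071 without an E2F word, defined below, and 7.92% of the 543 with one. All 4 G-CSF values lay above all 4 PBS values for 1 repair gene, Chek2 (2.78%), against 3.37% of all genes. For 0 repair genes did all G-CSF values lie below all PBS values, against 2.78% of all genes.

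Most differences were small. Fold changes of 34 of the 36 genes were under 1.5 in either direction, and the standard errors of the log2 fold changes ran from 0.15 to 0.35. The 95% confidence intervals of 29 genes lay wholly between -1 and 1 on the log2 scale, those of all 36 lay above -1, and those of 4 lay above 0. At the median standard error of 0.23, a log2 fold change of about 1.56 would have been needed to reach the largest p that was called over all genes. Differences well below that would not have passed at that standard error.

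**Figure D1:**
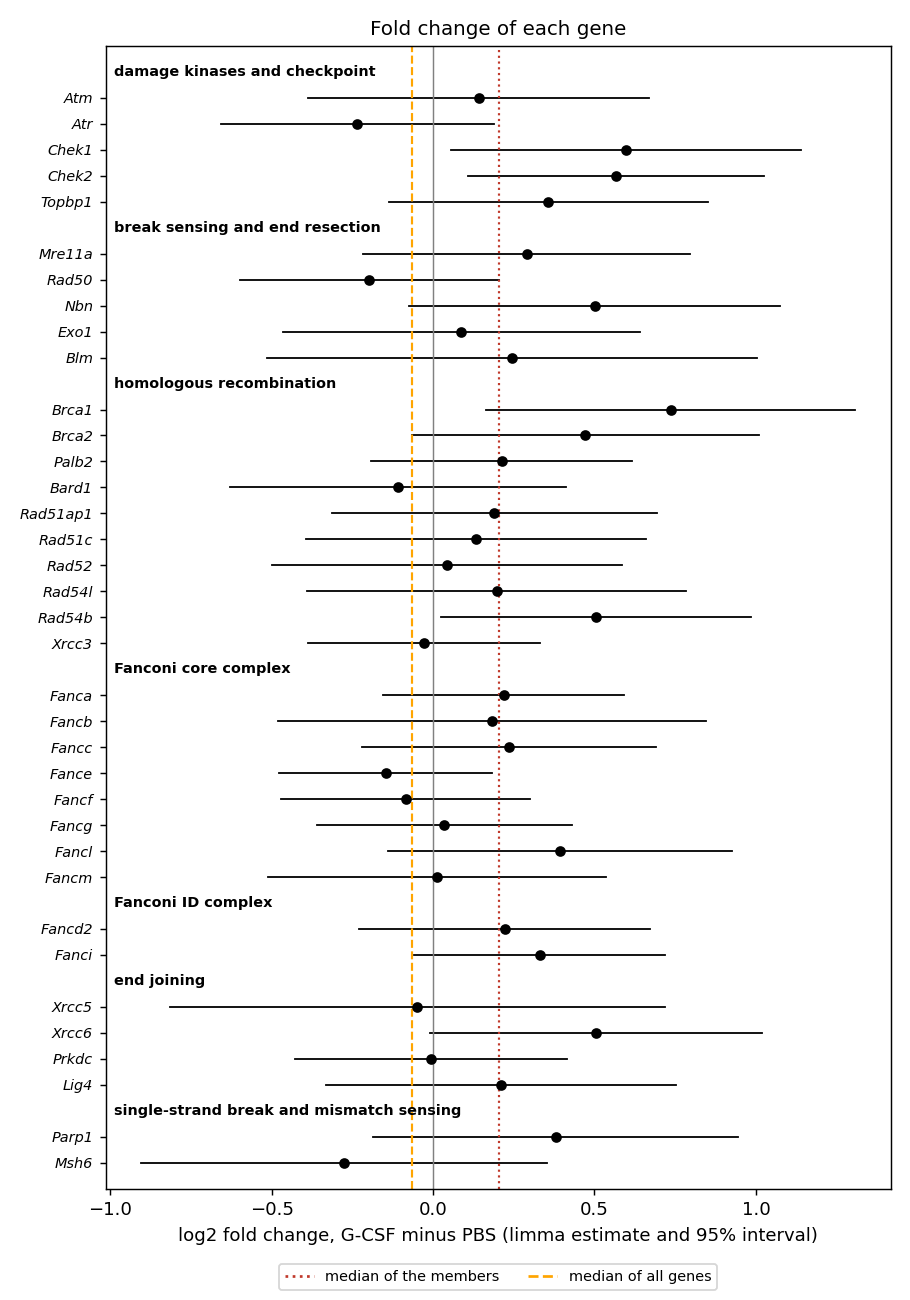
Limma log2 fold change of each measured repair gene, G-CSF minus PBS, with its 95% confidence interval, in role groups; dotted and dashed lines mark the median of the 36 genes (0.20) and of all 19938 genes (-0.07). The intervals of Brca1, Chek1, Chek2 and Rad54b lie above 0, none lies below 0, and no interval reaches -1.

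The share of positive fold changes was 75.0% in the repair genes and 41.7% over all genes, and it moved with brightness. Of the 9969 brighter genes on these arrays, 66.5% were positive with a median log2 fold change of 0.13, and the 26 repair genes among them had 69.2% positive and a median of 0.19. Of the 9969 dimmer genes, 17.0% were positive with a median of -0.18, whereas 9 of the 10 dimmer repair genes were positive, with a median of 0.21. These 10 were Brca1, Palb2, Rad51c, Rad54b, Fancb, Fancc, Fancf, Fancm, Fancd2 and Lig4. At an unadjusted limma p under 0.05, 7.69% of the brighter repair genes had higher means, against 11% of all brighter genes. For the 10 dimmer repair genes it was 20%, against 1.16% of all dimmer genes. Without PBS replicate 3, the brighter repair genes had a median of 0.07 against 0.05 for all brighter genes, and the dimmer repair genes 0.29 against -0.06 for all dimmer genes. The gap between dimmer repair genes and all dimmer genes kept its direction without that array. The 10 genes were not matched in brightness to all dimmer genes, so brightness and list membership cannot be told apart there. The brighter repair genes lay near their background with and without PBS replicate 3.

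**Figure D2:**
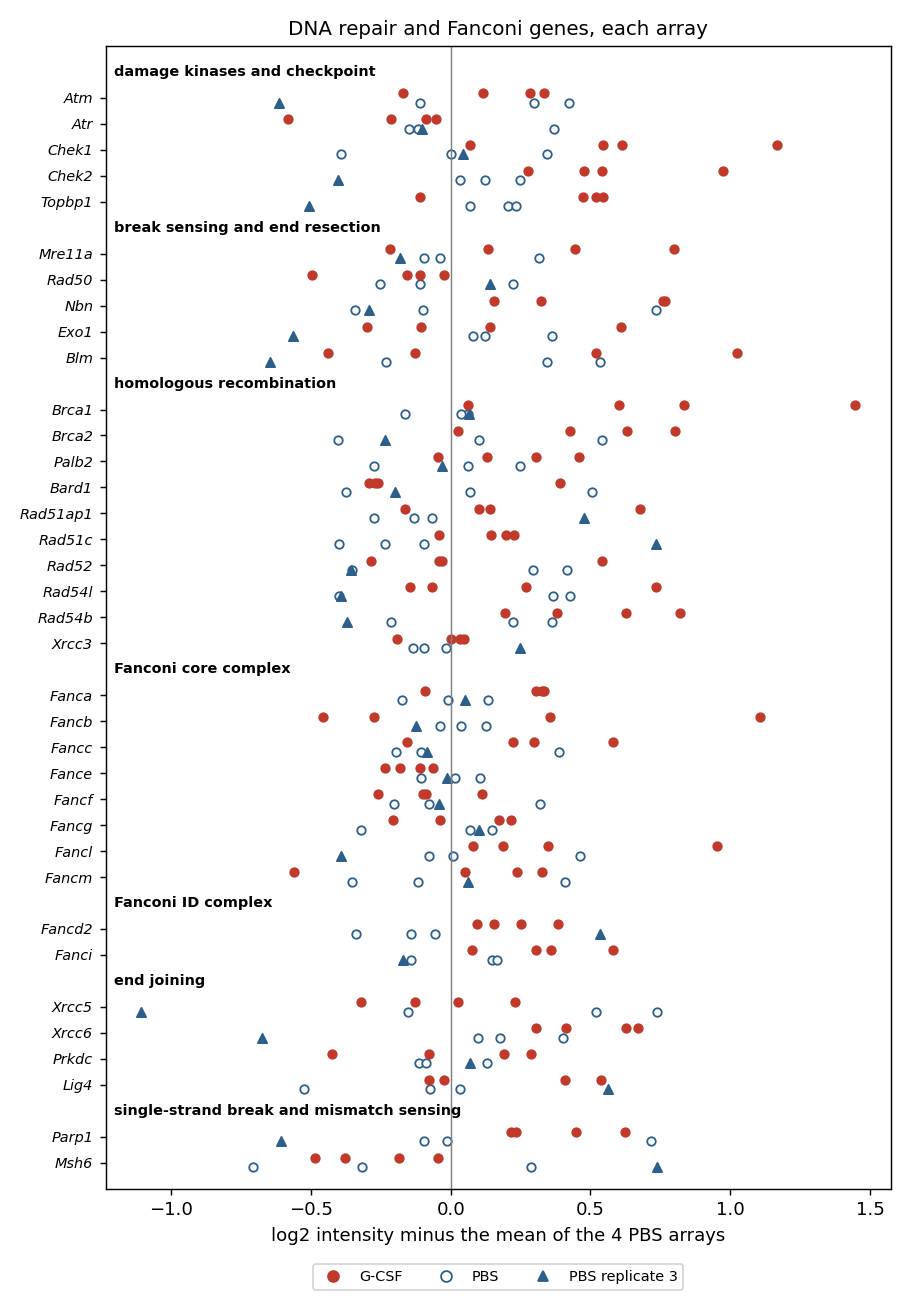
Log2 intensity of each measured repair gene on each of the 8 arrays, as the difference from the mean of the 4 PBS arrays (x axis), with filled circles for G-CSF, open circles for PBS and triangles for PBS replicate 3. Chek2 is the 1 gene whose 4 G-CSF points all lie above its PBS points, and PBS replicate 3 lies at an end of the PBS range for 21 of the 36 genes.

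Among the damage kinases and checkpoint genes, 4 of 5 had positive log2 fold changes, the median was 0.36, and 0 passed the test. Without PBS replicate 3, 3 of 5 were positive and the median was 0.19. Chek2, the effector kinase that Atm activates, had log2 intensities of 6.854, 7.553, 7.054 and 7.117 in G-CSF arrays, against 6.826, 6.699, 6.173 and 6.612 in PBS arrays. The groups did not overlap, by a margin of the lowest G-CSF array over PBS replicate 1, and PBS replicate 3 was the lowest. Its log2 fold change was 0.57 ± 0.21 SE (unadjusted p = 0.0199, limma adjusted p = 0.473), and 0.43 without PBS replicate 3. Chek1, the effector kinase of Atr that restrains cells with unfinished replication, had 6.15, 6.63, 6.70 and 7.25 in G-CSF arrays and 6.43, 6.09, 6.13 and 5.69 in PBS arrays. G-CSF replicate 1 lay below PBS replicate 1, and the other 3 G-CSF arrays lay above every PBS array. The log2 fold change was 0.60 ± 0.25 SE (unadjusted p = 0.0336, limma adjusted p = 0.523).

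The upstream kinases differed less. Atm had 6.998, 7.29, 7.51 and 7.45 in G-CSF arrays, against 7.06, 7.47, 6.56 and 7.59 in PBS arrays, with a log2 fold change of 0.14 ± 0.24 SE (limma adjusted p = 0.803) that was -0.06 without PBS replicate 3. The G-CSF values lay inside the PBS range. Atr had 6.32, 6.82, 6.69 and 6.85 in G-CSF arrays, against 6.76, 6.79, 6.80 and 7.27 in PBS arrays, with a log2 fold change of -0.23 ± 0.19 SE (limma adjusted p = 0.640). PBS replicate 4 was high and G-CSF replicate 1 low, and the remaining arrays of both groups ran together. Topbp1, the scaffold that switches Atr on, had 7.86, 8.51, 8.44 and 8.49 in G-CSF arrays and 8.17, 8.20, 7.46 and 8.04 in PBS arrays. Of the G-CSF arrays 3 lay above all PBS arrays and replicate 1 lay among them, and the log2 fold change was 0.36 ± 0.22 SE (limma adjusted p = 0.594), or 0.19 without PBS replicate 3.

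The promoters of these genes could be read against the E2F factors, since the RefSeq table (GRCm38.p6) held 33 promoter windows of 30 measured repair genes, each from 250 bases before to 50 bases after the start. Nbn, Rad50, Exo1, Rad54b, Fancd2 and Prkdc had no entry. An E2F word was counted as TTTCCCGC, TTTCGCGC, TTTGCCGC or TTTGGCGC on either strand. It stood in 9 of 33 windows (27.3%), those of Bard1, Brca2, Chek2, Fancg, Msh6, Topbp1, Xrcc6 and both windows of Rad51c. The share was 2.99% of the 19177 windows of all genes tested and 2.26% of all 32851 windows. The letters CCAAT, bound by NF-Y, stood in 57.6% of the repair gene windows and in 37.4% of those of all genes tested. The letters TTTGAA, which include the core of the cell cycle homology region of mitotic genes, stood in 3.03% of the repair gene windows and in 14.8% of those of all genes tested. A match describes these letters only, and binding was not measured. The 5 windows printed are those of Chek2, Topbp1, Brca2 and Xrcc6, which have an E2F word and positive fold changes above 0.3, and that of Msh6, which has the word and the lowest fold change of the list. Each runs 5′ to 3′ on the gene's strand, and capitals mark the E2F word, which begins at base -152 for Chek2, -129 for Topbp1, -168 for Brca2, -46 for Xrcc6 and 16 for Msh6, counted from the start.
Chek2, chr5:110839733-110840032, plus strand: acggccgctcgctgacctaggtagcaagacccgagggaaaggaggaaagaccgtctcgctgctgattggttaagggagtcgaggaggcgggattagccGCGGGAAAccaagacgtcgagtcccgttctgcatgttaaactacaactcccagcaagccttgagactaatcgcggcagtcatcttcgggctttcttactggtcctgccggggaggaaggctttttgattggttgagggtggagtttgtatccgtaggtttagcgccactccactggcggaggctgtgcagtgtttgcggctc
Topbp1, chr9:103305077-103305376, plus strand: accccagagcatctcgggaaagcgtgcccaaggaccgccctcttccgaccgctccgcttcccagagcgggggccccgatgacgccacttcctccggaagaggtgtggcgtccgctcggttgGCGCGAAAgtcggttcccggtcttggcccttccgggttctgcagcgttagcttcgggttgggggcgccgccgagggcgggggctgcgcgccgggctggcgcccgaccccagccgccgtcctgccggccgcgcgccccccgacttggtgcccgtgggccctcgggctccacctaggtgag
Brca2, chr5:150522371-150522670, plus strand: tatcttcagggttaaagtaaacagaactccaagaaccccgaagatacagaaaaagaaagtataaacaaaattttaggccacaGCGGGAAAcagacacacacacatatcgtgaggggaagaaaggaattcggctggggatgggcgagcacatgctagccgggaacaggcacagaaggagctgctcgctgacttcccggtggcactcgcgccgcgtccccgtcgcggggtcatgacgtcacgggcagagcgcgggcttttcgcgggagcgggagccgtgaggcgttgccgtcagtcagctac
Xrcc6, chr15:82016119-82016418, plus strand: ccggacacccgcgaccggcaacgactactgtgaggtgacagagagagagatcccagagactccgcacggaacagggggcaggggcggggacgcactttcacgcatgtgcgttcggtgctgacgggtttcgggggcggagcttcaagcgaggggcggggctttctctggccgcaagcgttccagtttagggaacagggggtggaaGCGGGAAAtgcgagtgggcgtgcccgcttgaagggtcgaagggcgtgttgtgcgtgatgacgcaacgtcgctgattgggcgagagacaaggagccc
Msh6, chr17:87974800-87975099, plus strand: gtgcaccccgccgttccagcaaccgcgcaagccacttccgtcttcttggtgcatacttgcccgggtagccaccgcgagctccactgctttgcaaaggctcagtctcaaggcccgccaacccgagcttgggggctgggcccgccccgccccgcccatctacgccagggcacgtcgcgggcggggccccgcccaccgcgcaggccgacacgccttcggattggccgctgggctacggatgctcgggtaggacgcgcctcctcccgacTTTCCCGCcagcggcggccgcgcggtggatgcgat

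Genes with and without the word had similar medians within the list. The 8 repair genes with an E2F word had a median log2 fold change of 0.24 with 6 positive, and the 22 without one had 0.20 with 17 positive. Over all genes tested, the 543 with the word had a median of 0.10 and 61.5% positive, against -0.06 and 42.4% in the 15071 without it. These genes were not matched for brightness, with which the share of positive fold changes moved. Without PBS replicate 3, the medians over all genes tested were 0.05 with the word and -0.02 without it. At an unadjusted p under 0.05, 9.02% of genes with the word had higher means, against 6.30% of genes without it. By limma's adjusted p, 0 genes with the word and 13 without it passed as higher. Chek1 and Brca1, which have windows in the table, carried no such word there. The Chek1 window ended in gcgggaa, which is GCGGGAAA (TTTCCCGC on the other strand) without its last letter. A word running across that edge could not be counted. The same letters also stood inside other windows without forming the word, as in those of Fanci and Rad51ap1, where t follows.

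Among the genes that sense breaks and trim their ends, 4 of 5 were positive, with a median log2 fold change of 0.24 that was 0.03 without PBS replicate 3, and 0 passed. Nbn, the regulatory subunit that brings Atm to the break, had 7.05, 6.89, 7.50 and 7.49 in G-CSF arrays, against 6.64, 6.39, 6.44 and 7.47 in PBS arrays. PBS replicate 4 lay among the G-CSF arrays and the other 3 PBS arrays lay below them all. The log2 fold change was 0.50 ± 0.26 SE (unadjusted p = 0.0812, limma adjusted p = 0.572), whereas a second, dimmer probe set of Nbn gave 0.03 ± 0.16 SE. The nuclease gene Mre11a had 7.49, 7.18, 6.83 and 7.85 in G-CSF arrays and 7.37, 7.01, 6.87 and 6.96 in PBS arrays (log2 fold change 0.29 ± 0.23 SE, limma adjusted p = 0.633). Rad50, the partner that tethers the ends, had 7.93, 8.31, 8.40 and 8.26 in G-CSF arrays and 8.31, 8.64, 8.56 and 8.17 in PBS arrays (log2 fold change -0.20 ± 0.18 SE, limma adjusted p = 0.669). The 3 subunits thus did not share a direction, and the groups overlapped for each. Blm, the helicase lost in Bloom syndrome, had 7.28, 7.79, 6.32 and 6.64 in G-CSF arrays and 7.30, 7.11, 6.12 and 6.53 in PBS arrays. Its spread within each group was wider than the difference between them, with a log2 fold change of 0.24 ± 0.34 SE that was 0.03 without PBS replicate 3. Exo1, a nuclease of long-range resection, had a log2 fold change of 0.09 ± 0.25 SE, which was -0.10 without PBS replicate 3.

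Homologous recombination genes were positive in 8 of 10 cases, with a median log2 fold change of 0.19 and 0.27 without PBS replicate 3. Brca1, which favours recombination over end joining, had log2 intensities of 5.358, 5.899, 6.744 and 6.134 in G-CSF arrays, against 5.359, 5.334, 5.363 and 5.136 in PBS arrays. The PBS arrays lay close together, G-CSF replicate 1 was level with them, and the other 3 G-CSF arrays were spread above. The mean was 1.67-fold higher (log2 fold change 0.74 ± 0.26 SE, 95% confidence interval 0.17 to 1.31, unadjusted p = 0.0161), which did not pass the adjustment (limma adjusted p = 0.454). Brca1 ranked 703 by p among the 19938 genes. Brca2, the loader of the recombinase, had 5.96, 6.56, 6.36 and 6.74 in G-CSF arrays, against 6.03, 5.53, 5.70 and 6.48 in PBS arrays. The groups overlapped through PBS replicates 1 and 4 and G-CSF replicates 1 and 3, and the log2 fold change was 0.47 ± 0.24 SE (unadjusted p = 0.0795, limma adjusted p = 0.571).

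Rad54b, a DNA translocase that acts with the recombinase, had 5.73, 6.16, 5.91 and 6.35 in G-CSF arrays and 5.90, 5.76, 5.16 and 5.32 in PBS arrays. Replicate 1 of the G-CSF arrays lay below PBS replicates 1 and 2, and the other 3 G-CSF arrays lay above every PBS array, replicate 3 narrowly. The log2 fold change was 0.50 ± 0.22 SE (unadjusted p = 0.0408, limma adjusted p = 0.539), and 0.38 without PBS replicate 3. Palb2, the bridge between the Brca1 and Brca2 proteins, had 5.25, 5.08, 5.43 and 5.58 in G-CSF arrays and 5.18, 4.84, 5.09 and 5.37 in PBS arrays (log2 fold change 0.21 ± 0.18 SE, limma adjusted p = 0.652). The ranges overlapped over most of their length. Rad51c, a recombinase paralog, had 4.19, 4.43, 4.46 and 4.37 in G-CSF arrays and 3.83, 4.13, 4.96 and 3.99 in PBS arrays. PBS replicate 3 was the highest of the 8, and the other PBS arrays lay below all G-CSF arrays: the log2 fold change was 0.13 ± 0.24 SE with that array and 0.38 without it (limma adjusted p = 0.474).

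Bard1, the partner of Brca1 in a ubiquitin ligase, was read by 3 probe sets that did not agree. The brightest, used in the test, had 6.56, 6.55, 6.53 and 7.21 in G-CSF arrays and 6.89, 7.32, 6.62 and 6.44 in PBS arrays, with a log2 fold change of -0.11 ± 0.24 SE (limma adjusted p = 0.849), or -0.18 without PBS replicate 3. The other 2 gave 0.65 ± 0.54 SE and 0.68 ± 0.20 SE on all 8 arrays, so the direction of Bard1 depended on the probe set. For the first of these, PBS replicate 3 was the highest array at 7.98, against 5.35 to 6.60 in the other PBS arrays. For the second, the groups did not overlap, with 5.10 to 5.82 in G-CSF arrays and 4.55 to 4.90 in PBS arrays. The remaining recombination genes had smaller fold changes, which moved with PBS replicate 3. The log2 fold change was 0.20 with that array and 0.07 without it for the translocase gene Rad54l, and 0.19 with it and 0.35 without it for Rad51ap1, a stimulator of the recombinase. Rad52, which anneals single strands, had 0.04 with it and -0.07 without it, and the recombinase paralog Xrcc3 had -0.03 with it and 0.06 without it. The groups overlapped for all 4.

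The Fanconi core complex genes had a median log2 fold change of 0.11, with 6 of 8 positive and 0 passing. Fancl, the catalytic ubiquitin ligase subunit, had 6.73, 6.84, 7.0 and 7.61 in G-CSF arrays, against 6.66, 7.11, 6.26 and 6.57 in PBS arrays. PBS replicate 2 exceeded 3 of the G-CSF arrays, and the log2 fold change was 0.39 ± 0.24 SE (unadjusted p = 0.133, limma adjusted p = 0.587). Fanca, the gene most often mutated in patients, had 6.19, 5.76, 6.18 and 6.16 in G-CSF arrays and 5.99, 5.84, 5.91 and 5.68 in PBS arrays. All G-CSF arrays but replicate 2 lay above the PBS arrays, with a log2 fold change of 0.22 ± 0.17 SE (limma adjusted p = 0.631). Fancc had 5.17, 5.91, 5.63 and 5.55 in G-CSF arrays and 5.14, 5.72, 5.25 and 5.23 in PBS arrays (log2 fold change 0.24 ± 0.21 SE, limma adjusted p = 0.654). Fance, the subunit that binds Fancd2, had 6.50, 6.57, 6.44 and 6.62 in G-CSF arrays and 6.78, 6.70, 6.67 and 6.57 in PBS arrays. These were among the tightest values of the list, with SDs of 0.076 and 0.0868 in the G-CSF and PBS groups, and the log2 fold change was -0.15 ± 0.15 SE (limma adjusted p = 0.696). Fancb, by contrast, ranged from 3.66 to 5.22 in G-CSF arrays, against 3.99 to 4.24 in PBS arrays, with a log2 fold change of 0.18 ± 0.30 SE. The log2 fold changes of the other 3 were 0.04 for Fancg (0.07 without PBS replicate 3), 0.01 for Fancm, the translocase that anchors the complex to DNA (0.03 without that array), and -0.08 for the adaptor subunit Fancf.

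The genes of the ubiquitinated pair both had positive fold changes. Fanci had 5.76, 6.04, 5.98 and 6.26 in G-CSF arrays, against 5.54, 5.83, 5.51 and 5.85 in PBS arrays. Only G-CSF replicate 1 lay among the PBS arrays, and the log2 fold change was 0.33 ± 0.18 SE (unadjusted p = 0.0883, limma adjusted p = 0.577). Fancd2 had 5.58, 5.71, 5.42 and 5.48 in G-CSF arrays, against 4.99, 5.19, 5.86 and 5.27 in PBS arrays. PBS replicate 3 was the highest of the 8 arrays and the other 3 PBS arrays were the lowest. The log2 fold change of Fancd2 was 0.22 ± 0.21 SE (limma adjusted p = 0.669), and 0.40 ± 0.14 SE without PBS replicate 3 (unadjusted p = 0.0188, limma adjusted p = 0.441). Without that array, 3 repair genes (Chek2, Rad51c and Fancd2) had groups that did not overlap (8.33%), against 4.76% of all genes.

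**Figure D3:**
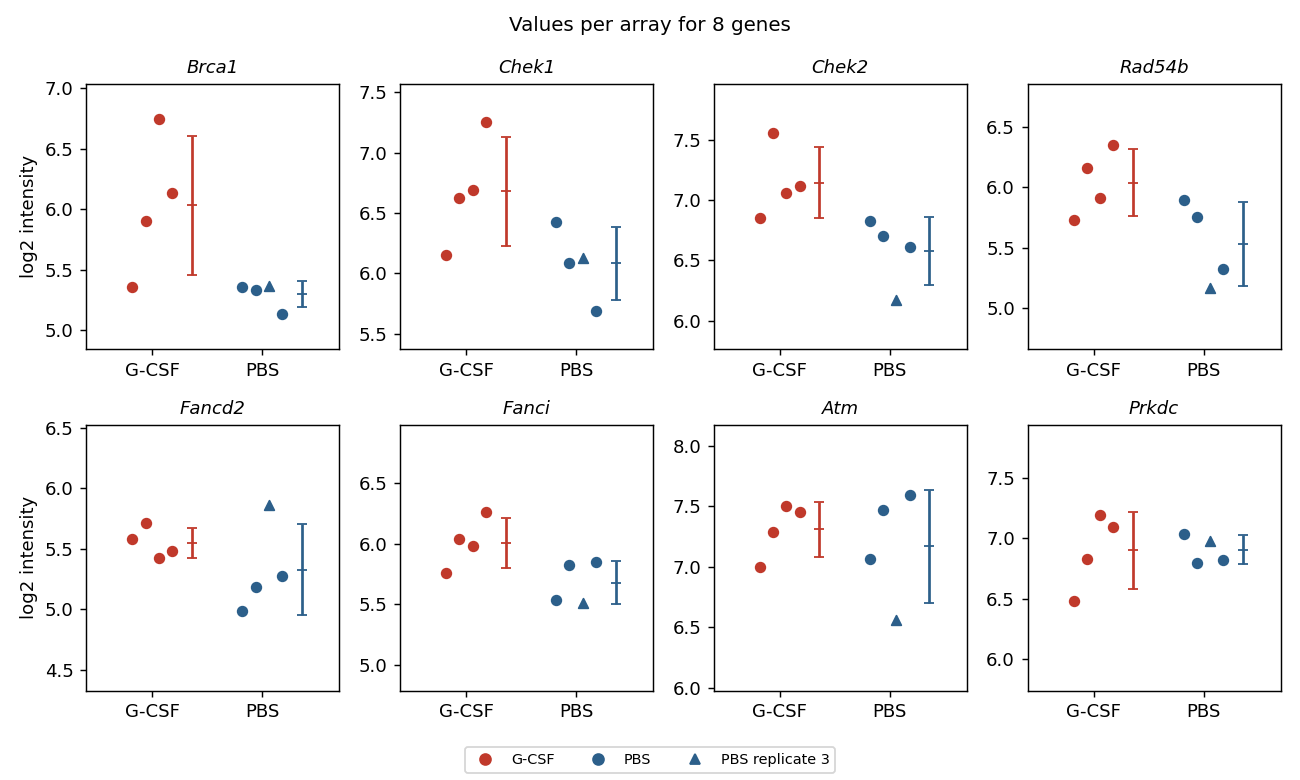
Log2 intensity per array (points) with group mean and SD (bars, n = 4 arrays) of Brca1, Chek1, Chek2, Rad54b, Fancd2, Fanci, Atm and Prkdc; triangles are PBS replicate 3. G-CSF replicate 1, the leftmost point of its group, is the lowest G-CSF array in all panels except Fancd2, and PBS replicate 3 is the highest Fancd2 value at 5.86.

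End joining genes were split, with 2 of 4 positive and a median log2 fold change of 0.10. Xrcc6, which encodes Ku70, had 7.40, 7.51, 7.76 and 7.72 in G-CSF arrays, against 7.19, 7.495, 6.42 and 7.27 in PBS arrays. Xrcc5, which encodes its partner Ku80, had 7.05, 7.24, 7.40 and 7.60 in G-CSF arrays, against 7.89, 8.11, 6.26 and 7.22 in PBS arrays. PBS replicate 3 was the lowest array for both Ku genes. The log2 fold change of Xrcc6 was 0.50 ± 0.23 SE (unadjusted p = 0.0540, limma adjusted p = 0.551), and 0.28 without that array. That of Xrcc5 was -0.05 ± 0.35 SE (limma adjusted p = 0.958), and -0.42 without that array (limma adjusted p = 0.648). Prkdc, the kinase that Ku recruits, had 6.48, 6.83, 7.19 and 7.10 in G-CSF arrays and 7.04, 6.79, 6.98 and 6.82 in PBS arrays. Its groups had like means, with a log2 fold change of -0.01 ± 0.19 SE and a 95% confidence interval from -0.43 to 0.41, or 0.02 without PBS replicate 3. Lig4, the ligase of this pathway, had 5.45, 5.58, 5.02 and 4.96 in G-CSF arrays and 4.97, 4.52, 5.60 and 5.08 in PBS arrays (log2 fold change 0.21 ± 0.25 SE, limma adjusted p = 0.723). PBS replicate 3 was its highest value, and without it the log2 fold change was 0.40.

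Parp1 and Msh6 act outside these pathways. Parp1, the polymerase that marks strand breaks with ADP-ribose, had 8.25, 8.23, 8.64 and 8.47 in G-CSF arrays and 7.92, 8.73, 7.41 and 8.004 in PBS arrays. PBS replicate 2 was the highest and replicate 3 the lowest of the 8, and the log2 fold change was 0.38 ± 0.26 SE (limma adjusted p = 0.608), or 0.18 without PBS replicate 3. Msh6, a mismatch recognition subunit, had 8.13, 8.32, 8.02 and 8.46 in G-CSF arrays and 7.80, 8.79, 9.25 and 8.19 in PBS arrays. The PBS values spread on both sides of the G-CSF values, and the log2 fold change was -0.27 ± 0.29 SE (limma adjusted p = 0.699), or -0.03 without PBS replicate 3.

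**Figure D4:**
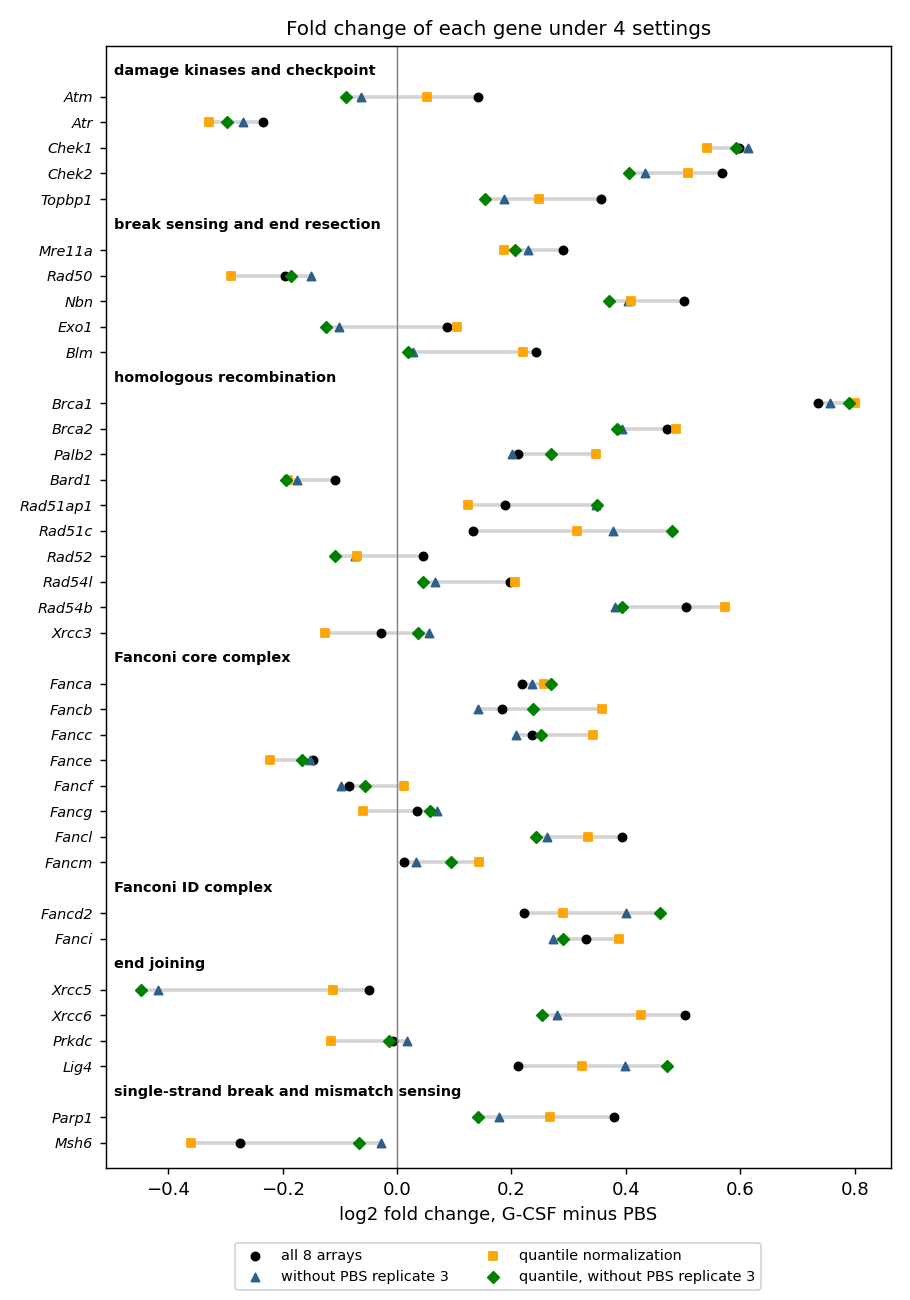
Log2 fold change of each repair gene, G-CSF minus PBS, with all 8 arrays, without PBS replicate 3, after renewed quantile normalization, and with both. Brca1 stays between 0.74 and 0.80, whereas Xrcc5 runs from -0.45 to -0.05 and Rad51c from 0.13 to 0.48. No G-CSF array is left out in these settings, and over all the alternatives tried Brca1 ran from 0.50 to 1.14.

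Averaged over the 36 genes, the log2 intensity was 6.39, 6.64, 6.56 and 6.73 in G-CSF arrays, against 6.44, 6.48, 6.27 and 6.37 in PBS arrays. G-CSF replicate 1 lay below PBS replicates 1 and 2, and the other 3 G-CSF arrays lay above all PBS arrays. Most cell cycle genes also had positive fold changes, and none of them passed. The 35 S phase genes averaged 7.23, 7.45, 7.52 and 7.78 in G-CSF arrays and 7.34, 7.19, 6.87 and 7.12 in PBS arrays, with G-CSF replicate 1 again below PBS replicate 1. Of these, 34 were positive, with a median log2 fold change of 0.38, 4 had an unadjusted p under 0.05 and 0 passed. Rrm2, a ribonucleotide reductase subunit, had the lowest p of the list (log2 fold change 0.66 ± 0.20 SE, limma adjusted p = 0.357). The 25 G2 and mitosis genes averaged 7.19, 7.30, 7.68 and 7.85 in G-CSF arrays and 6.73, 6.98, 6.63 and 6.64 in PBS arrays, and here the groups did not overlap. All 25 were positive, with a median log2 fold change of 0.71, and 20 had an unadjusted p under 0.05, though 0 passed. Cenpe, a kinetochore motor, had the lowest p (log2 fold change 0.93 ± 0.21 SE, limma adjusted p = 0.206). The part of cell cycle phase in the repair gene values was not tested.

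Neutrophil markers also had higher means in the G-CSF arrays. All 16 neutrophil markers were positive, with a median log2 fold change of 1.74, 14 had an unadjusted p under 0.05 and 0 passed (lowest limma adjusted p 0.0639). Their mean log2 intensity ran from 8.36 to 10.2 in G-CSF arrays, against 7.22 to 8.23 in PBS arrays, with G-CSF replicates 1 and 2 the highest. Among G-CSF arrays, the repair gene mean was lowest in replicate 1 at 6.39, and it was 6.64, 6.56 and 6.73 in replicates 2, 3 and 4. With replicates 1 and 2 left out, a choice made after seeing the data, the median log2 fold change of the repair genes was 0.24 and that of the neutrophil markers 0.84. In the same setting, the median of the S phase genes was 0.55 and that of the G2 and mitosis genes 0.97, against 0.38 and 0.71 on all 8 arrays. The part of other cell types in the repair gene values was not tested. Markers of granulocyte-monocyte progenitors had a median of 1.24 and monocyte markers 0.62, while the medians were -0.25 for erythroid, -0.27 for megakaryocyte, -0.25 for B cell and -0.24 for T and NK cell markers. Without PBS replicate 3, the erythroid median was -0.40 and the T and NK cell median -0.07, and the T and NK cell median was 0.01 with renewed quantile normalization as well. The 5 measured surface markers that the sort gates out had a median log2 fold change of 0.64, with 0.64 for Cd48, 0.10 for Itga2b, the gene of CD41 (-0.01 without PBS replicate 3), 1.37 for Ly6g and -0.01 for Cd3e (0.10 without it). The fifth, Itgam, the gene of CD11b, had 8.13, 8.54, 7.03 and 7.37 in G-CSF arrays and 6.65, 5.92, 5.25 and 6.55 in PBS arrays (log2 fold change 1.68 ± 0.38 SE, limma adjusted p = 0.206). The 11 stem cell markers had a median of 0.11 with PBS replicate 3 and -0.15 without it.

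**Figure D5:**
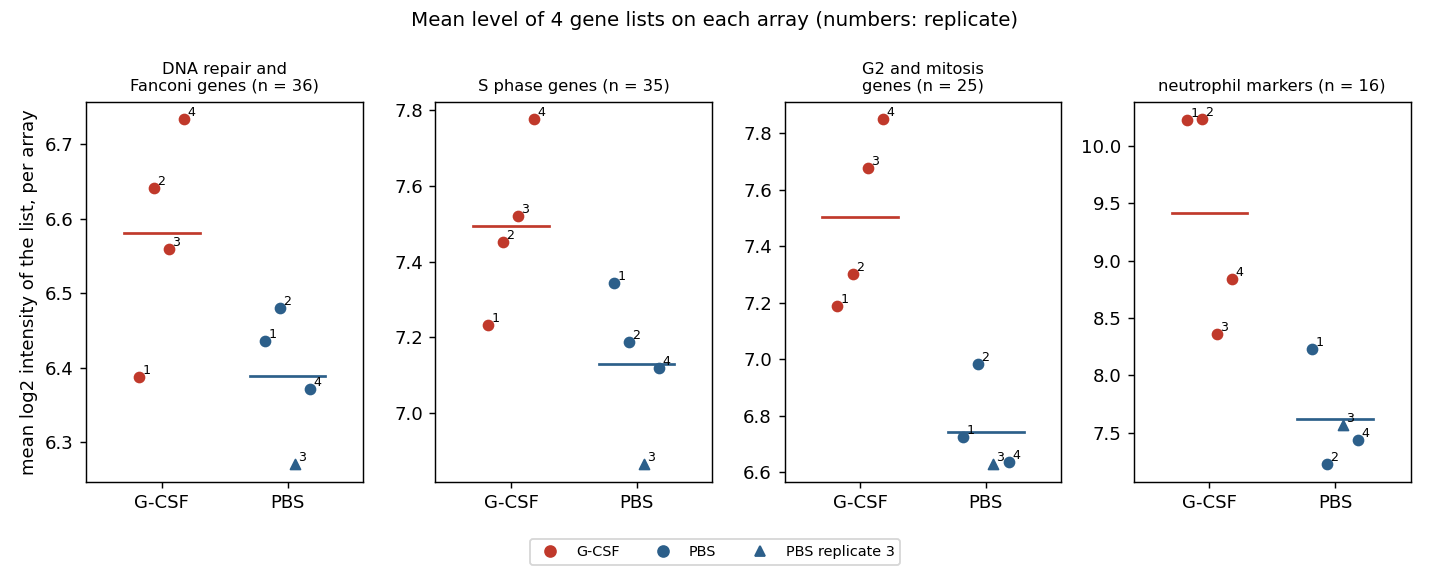
Mean log2 intensity per array of the 36 repair genes, 35 S phase genes, 25 G2 and mitosis genes and 16 neutrophil markers; points are arrays numbered by replicate, lines are group means, triangles are PBS replicate 3. The groups overlap for repair and S phase genes and not for the other lists, and G-CSF replicate 1 is lowest of its group in the repair, S phase and mitosis panels but not in that of neutrophil markers.

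The other genes of the repair pathways gave 0 calls by limma's adjusted p, with or without PBS replicate 3. Among 39 further recombination and Fanconi genes, 25 were positive, the median log2 fold change was 0.09 (0.05 without PBS replicate 3), and 2 had an unadjusted p under 0.05, both higher. Rad51b, a further recombinase paralog, had 5.58, 5.82, 5.87 and 6.91 in G-CSF arrays and 5.27, 5.40, 5.07 and 5.36 in PBS arrays. Its groups did not overlap, with a log2 fold change of 0.77 ± 0.27 SE (unadjusted p = 0.0147, limma adjusted p = 0.451). Cenps (0.82 ± 0.31 SE), which binds Fancm, and Babam1 (0.74 ± 0.35 SE), a subunit of a Brca1 complex, followed by p and overlapped, and Babam1 had 0.40 without PBS replicate 3.

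Further end joining genes had 11 of 15 positive and a median log2 fold change of 0.25, which was 0.07 without PBS replicate 3, with 2 higher and 1 lower at an unadjusted p under 0.05. Rif1, which shields ends from resection, had 6.87, 6.83, 6.67 and 7.13 in G-CSF arrays and 7.34, 7.42, 7.67 and 7.29 in PBS arrays. All G-CSF values of Rif1 lay below all PBS values, with a log2 fold change of -0.55 ± 0.17 SE (unadjusted p = 0.00801, limma adjusted p = 0.385). Nhej1, a factor that aligns ends for Lig4, had a log2 fold change of 0.83 ± 0.26 SE (limma adjusted p = 0.388) and overlapping groups. Dntt, the lymphoid enzyme that adds untemplated bases, had 5.68, 5.34, 7.97 and 9.05 in G-CSF arrays and 4.20, 6.16, 4.84 and 4.37 in PBS arrays. Its high values were those of G-CSF replicates 3 and 4 (log2 fold change 2.12 ± 0.75 SE, limma adjusted p = 0.459).

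Nucleotide excision repair genes, which cut out bulky lesions, had the largest median among the repair lists examined on all 8 arrays, a log2 fold change of 0.45 with 12 of 17 positive, and 0.21 without PBS replicate 3. Cetn2 had 6.45, 7.02, 6.58 and 6.65 in G-CSF arrays and 5.34, 6.30, 5.30 and 5.96 in PBS arrays. Xpc, the damage sensor that the Cetn2 protein binds, had 7.37, 7.32, 7.90 and 7.75 in G-CSF arrays and 6.63, 7.27, 5.91 and 7.11 in PBS arrays. Neither gene's groups overlapped: the log2 fold change was 0.95 ± 0.25 SE for Cetn2 (unadjusted p = 0.00278, limma adjusted p = 0.296) and 0.86 ± 0.29 SE for Xpc (unadjusted p = 0.0125, limma adjusted p = 0.433). Ercc3, a helicase of this pathway, had 0.50 ± 0.23 SE. In this list, all G-CSF values lay above all PBS values for 2 genes and below them for 1, against 3.37% and 2.78% of all genes. The gene with lower values was Gtf2h1 (log2 fold change -0.29 ± 0.16 SE, limma adjusted p = 0.578). These lists were measured on the same arrays, and differences between lists were not tested.

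The remaining lists were also read with and without PBS replicate 3, since their medians shifted. Base excision repair genes had 11 of 17 positive and a median log2 fold change of 0.08, or 0.03 without that array. The lowest p were those of the glycosylase gene Neil3 (0.48 ± 0.25 SE), the polymerase gene Polb (0.66 ± 0.35 SE, and 0.39 without that array) and the glycosylase gene Neil1 (0.26 ± 0.16 SE). Lesion bypass genes had 3 of 11 positive and a median of -0.08, or -0.20 without that array. Rad18, the ubiquitin ligase that acts on the replication clamp, had the lowest p (0.61 ± 0.24 SE, unadjusted p = 0.0254, limma adjusted p = 0.505). Ube2b (0.36 ± 0.18 SE) and Rev1 (-0.36 ± 0.20 SE) followed by p. Without PBS replicate 3, 0 genes of the list had higher and 2 had lower means at an unadjusted p under 0.05. The other mismatch repair genes had 2 of 4 positive and a median of -0.06, or -0.02 without that array, with Mlh3 at -0.41 ± 0.22 SE and -0.25 without it. Targets of p53, the factor that Atm and Chek2 activate, had 11 of 22 positive and a median of -0.01, with 0 at an unadjusted p under 0.05 in either direction. Without PBS replicate 3 their median was -0.08, and 3 had higher and 2 lower means at an unadjusted p under 0.05. The share of all genes with lower means at that p was not counted without that array. Trp53inp1 (0.56 ± 0.27 SE), Gtse1 (0.34 ± 0.19 SE) and Eda2r (-0.34 ± 0.20 SE, and -0.16 without that array) had the lowest p of that list on all 8 arrays. The 6 aldehyde clearance genes, whose products remove the metabolites that make crosslinks, had 4 positive and a median of 0.24, or 0.13 without PBS replicate 3. Aldh9a1 had a log2 fold change of 0.57 ± 0.25 SE (unadjusted p = 0.0412, limma adjusted p = 0.539). Adh5 had 0.28 ± 0.20 SE with PBS replicate 3 and 0.16 without it, and Aldh2 had 0.59 ± 0.47 SE with it and 0.02 without it. Without that array, 0 of these genes had higher and 1 had lower means at an unadjusted p under 0.05. This was Aldh1a1, with a log2 fold change of -0.32 ± 0.38 SE on all 8 arrays and -0.74 without PBS replicate 3 (limma adjusted p = 0.349).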

How the data were processed

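Expression was measured on 8 arrays, 4 of G-CSF pools and 4 of PBS pools, and the groups were taken from the labels. The deposited table gives an intensity on a linear scale for every array and probe set. The authors made it with RMA, per the submitters' processing notes. Its version and options were not given in the sources used here. Usually this method makes arrays alike in overall distribution, yet PBS replicate 3 kept a narrower one. The deposited intensity values ran from 2.15 to 16162 and log2 was taken before all tests.

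Of 35556 probe sets, 21789 carried 1 symbol, 1621 several and 12146 none in the platform annotation. Identifiers of 21698 matched the RefSeq gene table (GRCm38.p6) and 0 symbols changed. The brightest probe set of a gene was kept, without a filter on low values, which left 19938 genes. All were fitted with limma 3.58.1 in R 4.3.3 (lmFit, eBayes, 2-sided) and p-values were adjusted by Benjamini and Hochberg's method across these genes, with 0.05 as the threshold. The wider lists hold none of the 36 genes, and among them Ddb2 and Polk stand in more than 1 repair list. Lists are described by counts and medians beside those of all genes. No p-value was adjusted over a list alone. The number of arrays limits the precision, and p-values rest on the spread between pools.

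The members and lists were chosen with earlier results of these data known. Per-array values are given for up to 4 genes of lowest p in each role group, the highest and lowest fold change, and Brca1, Brca2, Fancd2, Fanci, Atm, Atr, Chek1, Chek2, Prkdc and Parp1, and up to 3 genes of lowest p are named in each wider list. Rad51c, Fancb, Bard1, Rad51b, Rif1, Dntt, Cetn2, Xpc and the marker genes fall outside the rule for per-array values, and were chosen for them after their values were seen. Gtf2h1 and Aldh1a1 are named beyond these rules, also after their values were seen. Alternatives were another moderation, a replicate block, array weights, the brighter genes alone, renewed quantile normalization, median centring, other probe set rules and leaving out each array. The fit was tested on simulated arrays.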

Additional observations from a re-analysis of the deposited data

Results flagged for a closer look

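Groups of 4 arrays were examined for the repair genes, their mean and the 3 genes of lowest p in each wider list, cell cycle lists included and cell type markers not. Of these 134 groups, 9 held an array whose gap to the nearest other exceeded Dixon's 95% critical share of the range. Chance alone gives about 1 group in 20. Topbp1 was 7.8599 in G-CSF replicate 1, against 8.44 to 8.51 in the other 3. Bard1 was 7.2087 in G-CSF replicate 4, against 6.53 to 6.56. Fanca was 5.7618 in G-CSF replicate 2, against 6.16 to 6.19. Atr was 7.2733 in PBS replicate 4, against 6.75 to 6.80. Brca1 was 5.1362 in PBS replicate 4, against 5.33 to 5.36. Fancg was 6.5831 in PBS replicate 4, against 6.97 to 7.05. Among wider repair genes, Eda2r was 4.0671 in G-CSF replicate 2, against 4.32 to 4.35, and 5.1471 in PBS replicate 3, against 4.37 to 4.47. Rev1 was 7.0045 in PBS replicate 3, against 7.51 to 7.55. All values are log2 intensities.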

How the results depend on the processing

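No repair gene passed an adjusted p of 0.05 in any of the 18 alternatives, and their lowest adjusted p was 0.287 (limma, Brca1, array weights). The median log2 fold change of the repair genes ran from 0.12, without G-CSF replicate 2, to 0.29, after median centring. Each value lay within the 0.12 pooled SD of the member mean between arrays from the main value. That yardstick cannot test stability. Another moderation or the replicate block leaves fold changes unchanged, and leaving out 1 of 4 arrays moves a mean only in part. The count over all genes varied: 40 with array weights, 10 after renewed quantile normalization, 0 with every probe set tested, named or not, and 0 without the pair of G-CSF arrays 1 and 2, a setting chosen after seeing the data. It ran from 3 to 31 when 1 array was left out, the lowest without G-CSF replicate 2 and the highest without G-CSF replicate 3. Of the 36 genes, 18 were positive in every alternative, 4 were negative in every one (Atr, Rad50, Fance and Msh6) and 14 took either sign. Unadjusted p stayed under 0.05 in 17 of 17 alternatives for Brca1, 16 of 18 for Chek2, 11 of 18 for Chek1 and 8 of 17 for Rad54b. Deviations of arrays with the same replicate number correlated at -0.0254 to 0.135, and 2 of 8 arrays correlated best with their own number, so the numbers were not taken as pairs. With the replicate block, 23 genes passed over all genes, 0 of them repair genes. Without detection calls, the dimmer probe sets limit what can be read. The cause of these shifts was not tested.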
